A study of Mus musculus with 2 samples.

Results

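Collagens are secreted or membrane-bound proteins whose chains wind around each other in groups to form a triple helix. The genes described here are the GENCODE mouse protein-coding genes whose symbol has the form Col, a type number, the letter a and a chain number, such as Col1a1. This rule found 44 genes among the 21474 protein-coding genes and 43346 mouse genes of the deposited tables. They were grouped by structure into 11 fibrillar chains, 6 chains of basement membrane collagen (type IV), 9 FACITs (fibril-associated collagens with interrupted triple helices), 6 beaded-filament chains (type VI), 2 multiplexins, 4 transmembrane collagens, 3 short-chain network collagens and 3 remaining chains.

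The tissue was embryonic liver of the B6NCrl mouse strain at day 11.5, sampled as 2 pools that each held male and female embryos. Replicate 1 was a pool of 109 embryos, and the labels give no size for the pool behind replicate 2. No allele, agent or treatment is named in the labels, and both libraries belong to a single group with no control, so levels are described and no condition is tested. Total RNA of each pool was sequenced with added control RNAs (spike-ins), from 10 ng of starting RNA.

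Fibrillar collagens are made as procollagens, trimmed outside the cell and assembled into the fibrils of connective tissue. Type IV collagen forms the sheet-like network of basement membranes, and types XV and XVIII sit at the edge of such membranes. In the developing liver, stellate cells, other mesenchymal cells, the mesothelium that covers the organ and endothelium are known sources of matrix. In bulk tissue, fewer cells of a type and less RNA per cell cannot be told apart.

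Estimated counts summed to 34344230 in replicate 1 and to 31477397 in replicate 2. Levels are given in TPM, a unit scaled to a fixed total per library, which corrects for gene length so that genes can be compared within a library. TPM is relative to all features, and spike-ins took 14.6% of it in replicate 1 and 11.1% in replicate 2. All 6 hepatoblast markers of a fixed list were detected, with Afp, the fetal serum protein alpha-fetoprotein at 4698 and 5457 TPM. Heart muscle markers were also present and unequal: their summed level was 319.5 TPM in replicate 1 and 140.4 TPM in replicate 2. Values are given as replicate 1 and then replicate 2, and means are ± SD over the libraries (n = 2).

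The sequence that all members of the family share is a run of 9-base units that begin with GG. Each repeat of the triple helix starts with glycine, whose codons begin with these letters. Stretches of 7 such units are shown for the 3 most abundant collagens, the leading basement membrane chain and the leading multiplexin, so that the shared frame and the different filling can be seen. Each is 63 bases of GENCODE M21 transcript sequence, in the reading frame, with the GG of every unit in capitals.
Col1a1-201: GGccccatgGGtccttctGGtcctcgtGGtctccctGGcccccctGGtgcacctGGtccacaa
Col1a2-201: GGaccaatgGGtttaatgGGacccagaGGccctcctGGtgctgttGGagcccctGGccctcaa
Col3a1-201: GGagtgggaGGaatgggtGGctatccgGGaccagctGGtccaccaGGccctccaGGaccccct
Col4a1-201: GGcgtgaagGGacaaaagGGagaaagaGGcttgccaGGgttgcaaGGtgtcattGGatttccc
Col18a1-202: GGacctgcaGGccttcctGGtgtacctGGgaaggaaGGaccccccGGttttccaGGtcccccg

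On GRCm38 (mm10) these stretches lie at chr11:94939451-94939912 (plus strand), chr6:4512406-4515489 (plus), chr1:45323762-45325386 (plus), chr8:11247051-11267614 (minus) and chr10:77077684-77077746 (minus). The first 4 cross introns, so their genomic span is longer than the printed bases. All 44 collagen genes held an unbroken run of at least 20 units in a GENCODE M21 transcript. Among 21384 other protein-coding genes 21, or 0.0982%, held such a run, the longest in Marco, a macrophage scavenger receptor, at 81 units. Next were Cdr1 (67 units), Sftpd and Colq (59 each) and Scara3 and Colec12 (49 each), so the run is not confined to genes named Col. The scan read letters in any frame, so a run outside the collagens need not be coding. The median longest run was 58.5 units in collagens and 3 units in the other genes.

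Run lengths overlapped between most structural groups, but the fibrillar chains stood above the rest. The long fibrillar chains Col1a1, Col1a2, Col2a1, Col3a1, Col5a1, Col5a2, Col5a3, Col11a1 and Col11a2 held 337 to 344 units, the most in Col3a1. Col27a1 and Col24a1, the other fibrillar chains, held 217 and 216 units. Among the FACITs the type IX chains and Col22a1 held 113 units each, whereas Col12a1, Col14a1 and Col20a1 held 32. Type VI chains ranged from 37 units in Col6a5 to 87 in Col6a1 and Col6a2. The basement membrane chains ranged from 39 units in Col4a3 to 66 in Col4a2. Col18a1 and Col15a1 held 30 units each, and Col26a1 had the shortest longest run, at 23 units.

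Of the 44 collagen genes, 27 were detected, meaning that each library gave them at least 1 TPM. That is 61.4% of the family, beside 56.6% of all 21474 protein-coding genes, so the share detected was near that of genes in general. The median collagen level was 2.40 and 2.33 TPM, beside 2.82 and 2.87 TPM over all protein-coding genes. Levels spanned a wide range around this median: 3 genes had a mean above 100 TPM, 7 lay from 10 to 100 TPM, and 16 were under 1 TPM in both libraries. Col15a1 alone was split by the threshold, at 0.91 and 1.10 TPM. Its credibility interval from the authors lay above 1 TPM in both libraries, at 1.050 to 2.602 and 1.083 to 3.025 TPM. Summed over the family, collagen transcripts reached 746.0 and 735.7 TPM (mean 740.8 ± 7.27), which was 0.0873% and 0.0827% of the TPM on mouse genes.

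**Figure D1:**
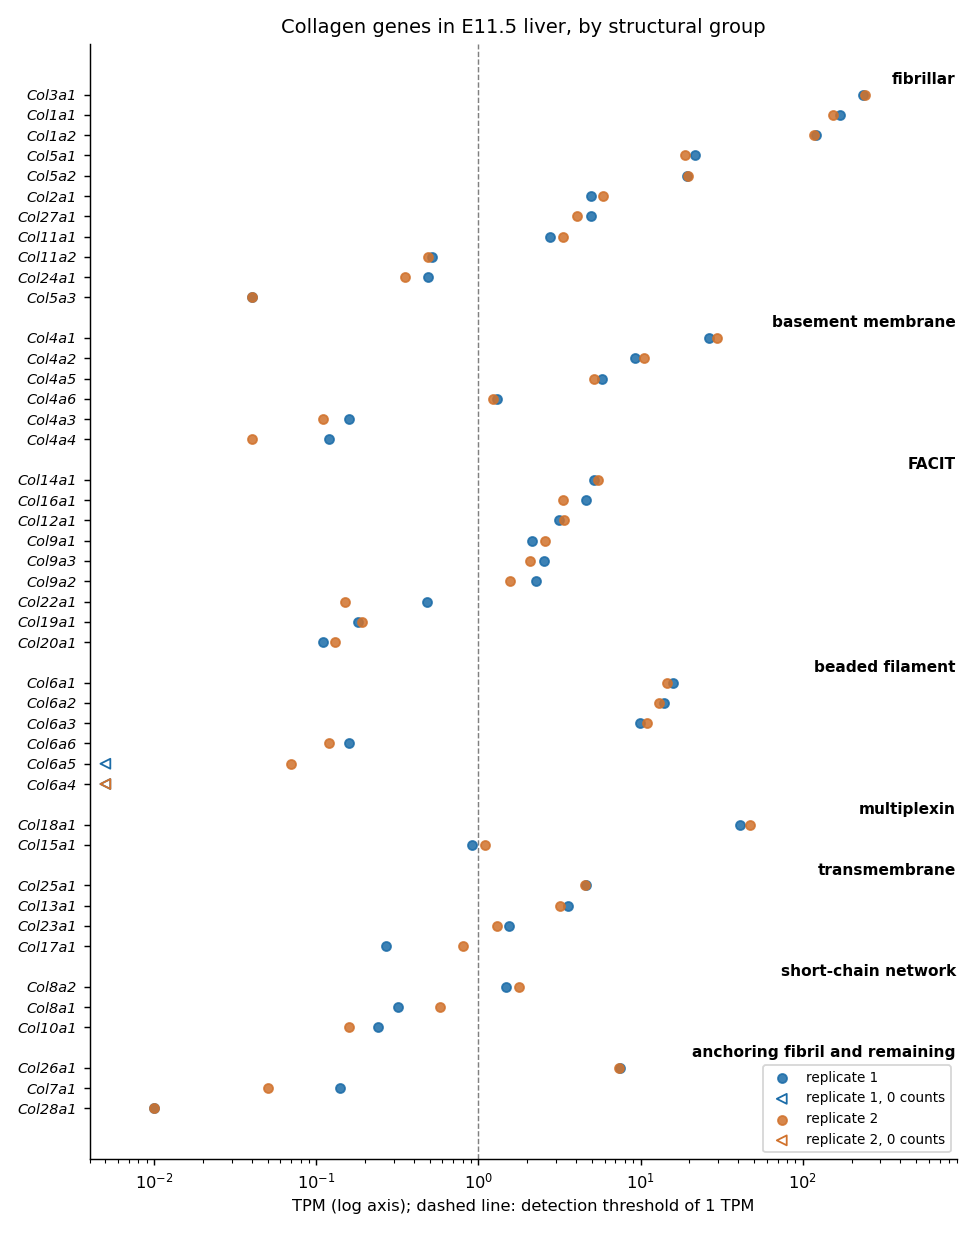
TPM on a log axis for each of the 44 collagen genes in E11.5 liver, grouped by structure, with 1 point per library and the detection threshold of 1 TPM as a dashed line. Col3a1, Col1a1 and Col1a2 stand at the right, between 116.60 and 240.58 TPM, and open triangles at the left edge mark libraries with 0 counts (Col6a5 in replicate 1, Col6a4 in both).

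Fibrillar chains made up most of the collagen message. Their sum was 580.5 and 563.0 TPM, or 77.8% and 76.5% of all collagen TPM, and 8 of 11 members were detected. Col3a1, the only chain of type III collagen, was the highest collagen gene at 236.96 and 240.58 TPM. Col1a1, the main chain of type I collagen, was at 168.65 and 153.27 TPM, and Col1a2, its partner chain, was at 120.32 and 116.60 TPM. By TPM the order Col3a1, Col1a1, Col1a2 was the same in both libraries, and these 3 genes together held 70.5% and 69.4% of collagen TPM. The lead of Col3a1 over Col1a1 did not hold as a call by estimated counts or without short transcripts, as given below.

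Type V collagen, which joins type I in fibrils and sets their width, came next among the fibrillar chains. Col5a1 was at 21.56 and 18.74 TPM and Col5a2 at 19.28 and 19.64 TPM, so their order differed between the libraries. Col5a3, the optional chain of type V, was close to 0 at 0.04 TPM in both, on 6 counts each. The chains best known from cartilage were low but detected in part: Col2a1, the chain of type II collagen, was at 4.94 and 5.90 TPM, and Col11a1 was at 2.78 and 3.31 TPM. Col11a2, its partner in type XI collagen, was under the threshold at 0.52 and 0.49 TPM. Col27a1 was at 4.92 and 4.06 TPM and Col24a1, its relative with a similar shortened helix, at 0.49 and 0.35 TPM.

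Beside these cartilage collagens, 2 of 9 other cartilage markers were detected, and the list summed to 13.13 and 12.25 TPM. Sox9, a regulator of cartilage and of other tissues, made up most of that at 8.92 and 8.69 TPM. Hapln1 was the other detected marker, at 2.99 and 2.77 TPM, and the remaining 7 were under 1 TPM in both libraries. Acan, which encodes the cartilage proteoglycan aggrecan, was at 0.03 and 0 TPM, and Snorc was listed at 0 in both. Of 4 bone markers none was detected, and Sp7, a regulator of bone cells, was the highest at 1.06 and 0.41 TPM. Mesenchymal markers were present throughout: all 10 stellate and mesenchymal genes were detected, with a sum of 215.8 and 202.7 TPM.

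Basement membrane chains summed to 43.23 and 46.84 TPM, or 5.80% and 6.37% of collagen TPM, with 4 of 6 members detected. Col4a1 and Col4a2 form the common type IV trimer and lie head to head on chromosome 8. Col4a1 was at 26.57 and 29.77 TPM and Col4a2 at 9.28 and 10.52 TPM. The X-linked pair was lower, with Col4a5 at 5.79 and 5.17 TPM and Col4a6 at 1.31 and 1.23 TPM. Col4a3 (0.16 and 0.11 TPM) and Col4a4 (0.12 and 0.04 TPM), which pair with Col4a5 in the mature kidney filter, were not detected.

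The multiplexins summed to 42.13 and 48.58 TPM, nearly all of it from Col18a1. This gene, which encodes the basement membrane collagen whose end fragment is endostatin, was the fourth highest collagen at 41.22 and 47.48 TPM. It was higher in replicate 2, as were Col4a1 and Col4a2. Its relative Col15a1, at 0.91 and 1.10 TPM, was 40.3-fold lower when 0.1 TPM was added to both genes. Col18a1 overlaps Slc19a1, a folate carrier gene on the opposite strand, by 8825 bases of gene body, but their annotated exons share 0 bases. Slc19a1 was at a similar level, 43.44 and 51.06 TPM, and the sources used here do not say whether reads were counted by strand.

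Beaded-filament chains summed to 39.85 and 38.67 TPM (5.34% and 5.26% of collagen TPM). The classical chains of type VI, which form fine filaments around cells, lay close together: Col6a1 at 15.85 and 14.54 TPM, Col6a2 at 13.87 and 12.97 TPM, and Col6a3 at 9.97 and 10.97 TPM. The later described chains were not detected. Col6a6 was at 0.16 and 0.12 TPM. Col6a5 had 0 counts in replicate 1, where 3 counts would be 0.0196 TPM, and was at 0.07 TPM in replicate 2. Col6a4 had 0 counts in both, where 3 counts would be 0.0371 and 0.0425 TPM. The authors' upper credibility bounds were higher, at 0.1769 TPM for Col6a5 in replicate 1 and 0.2626 and 0.2961 TPM for Col6a4.

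FACITs coat the surface of fibrils, and 6 of 9 were detected, with a sum of 20.66 and 18.88 TPM. Col14a1 was the highest at 5.17 and 5.49 TPM, followed by Col16a1 at 4.62 and 3.34 TPM and Col12a1 at 3.16 and 3.36 TPM. The type IX chains, which decorate type II fibrils in cartilage, were at 2.14 and 2.58 TPM (Col9a1), 2.26 and 1.56 TPM (Col9a2) and 2.54 and 2.08 TPM (Col9a3). The Col9a3 values carry a limit, since 234 of its 3853 exon bases are shared with Tcfl5 on the opposite strand, itself at 0.11 and 0.23 TPM. Col22a1, Col19a1 and Col20a1 ranged from 0.11 to 0.48 TPM. Over near-full-length transcripts alone (protein-coding, at least 50% of the longest one's length), the FACIT sum was 10.77 and 11.97 TPM, and replicate 2 was then the higher. By that measure Col16a1, at 0.71 and 0.84 TPM, was not detected, and Col12a1, at 1.04 and 1.02 TPM, lay below the type IX chains.

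Transmembrane collagens summed to 9.97 and 9.86 TPM, the same 1.34% of collagen TPM in both libraries. Col25a1, known from neurons and muscle innervation, led at 4.6 and 4.56 TPM. Col13a1 was at 3.56 and 3.19 TPM and Col23a1 at 1.54 and 1.31 TPM. Col17a1, a component of the hemidesmosomes that anchor epithelium, was at 0.27 and 0.80 TPM, and of 4 stratified epithelium markers only Krt14 was detected, at 1.76 and 1.69 TPM.

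The short-chain collagens were the smallest group, at 2.04 and 2.51 TPM. Col8a2 was detected at 1.48 and 1.77 TPM, whereas its partner chain Col8a1 was at 0.32 and 0.58 TPM. Col10a1, the collagen of growth plate cartilage, was at 0.24 and 0.16 TPM, and its gene body lies across Nt5dc1 on the opposite strand, with 18 shared exon bases. Among the remaining chains Col26a1 was detected at 7.48 and 7.31 TPM. Col7a1, the anchoring fibril collagen of skin, was at 0.14 and 0.05 TPM, and Col28a1 was at 0.01 TPM in both, on 1 count each. For Col7a1 the authors' credibility intervals lay above these values, at 0.2432 to 1.388 and 0.1504 to 1.413 TPM.

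**Figure D2:**
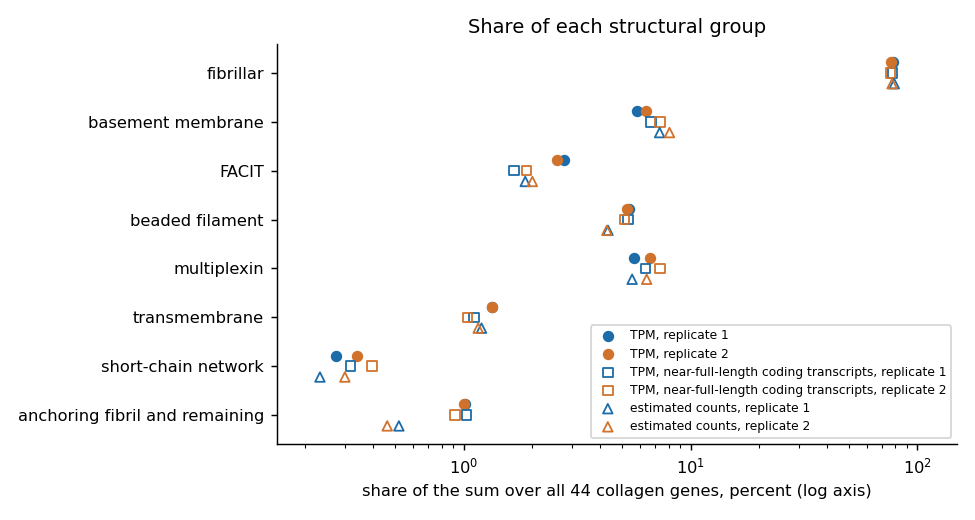
Share of each structural group in the sum over all 44 collagen genes, in percent on a log axis, per library, from TPM, from TPM of near-full-length coding transcripts and from estimated counts. Fibrillar chains take 76.0% to 79.0% by every measure, and the other groups each stay under 10% (0.233% to 8.08%).

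Chains that are neighbours in structure were compared as 18 pairs, each as a log2 ratio of TPM with a pseudocount of 0.1 TPM. A pair counted as ordered on 3 conditions: its direction was shared by the libraries, the authors' credibility intervals of the chains were apart in each, and the ratio was on average larger than its change from library to library. By this rule 14 pairs were ordered and 4 were not. With 2 libraries an exact sign-flip test cannot go below p = 0.5, so no test is given.

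Type I collagen contains more alpha 1 than alpha 2 chains, and Col1a1 was 1.36-fold above Col1a2 (log2 0.49 and 0.39). Col4a1 was 2.83-fold above Col4a2 (log2 1.51 and 1.49), and the libraries differed by 0.02 in this ratio. Col4a5 was 4.07-fold above Col4a6, its partner in another type IV trimer. Between trimers, Col4a1 was 5.07-fold above Col4a5. Both Col4a5 ratios include Col4a5-204, a 3511-base transcript with 59.5% and 48.0% of Col4a5 TPM. The 6536-base Col4a5-202 alone was at 2.35 and 2.69 TPM. Col11a1 was above Col11a2 by a mean log2 of 2.37, which was 1.60 by the deposited posterior mean TPM and 3.61 by counts. Col8a1 was 3.22-fold below Col8a2 (log2 -1.69, or -0.86 with a pseudocount of 1 TPM). Col5a3 was below Col5a1 by an amount that the pseudocount sets on its 6 counts: the log2 ratio was -7.17, -4.34 with 1 TPM and -8.65 with 0.01 TPM.

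Type VI chains were the closest ordered pair, with Col6a1 1.13-fold above Col6a2 (log2 0.19 and 0.16). Col6a3 was 1.45-fold below Col6a1. The pairs without an order were Col5a1 with Col5a2 (log2 0.16 and -0.07), Col4a3 with Col4a4 (0.24 and 0.58), Col9a1 with Col9a2 (-0.08 and 0.69) and Col9a3 with Col9a2 (0.16 and 0.39). For these, the libraries or the credibility intervals did not separate the chains.

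**Figure D3:**
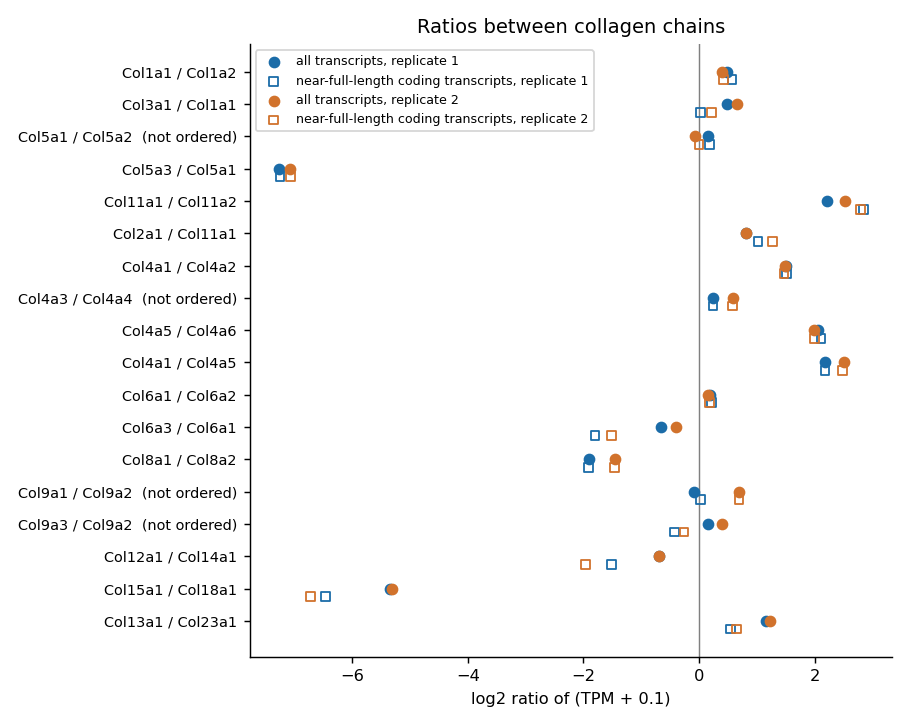
Log2 ratio of TPM + 0.1 for 18 pairs of collagen chains, with filled points for all transcripts and open squares for near-full-length coding transcripts in each library. Col4a1 to Col4a2 is 1.51 and 1.49 over all transcripts and close to that by the other measure, whereas Col6a3 to Col6a1 moves from a mean of -0.53 to -1.66 and Col12a1 to Col14a1 from -0.69 to -1.74.

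Several partner genes are also neighbours on the chromosome. Col4a1 (chr8:11198423-11312826, minus strand) and Col4a2 (chr8:11312805-11449287, plus strand) start on opposite strands with 22 annotated bases in common. These bases, shown 5′ to 3′ on the plus strand of chr8:11312805-11312826, are the start of both genes.
Col4a1 and Col4a2: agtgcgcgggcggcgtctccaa

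From this shared start the mean levels were 28.2 TPM toward Col4a1 and 9.90 TPM toward Col4a2. Col4a4 and Col4a3 start 71 bases apart on chromosome 1, and neither was detected (0.0800 and 0.135 TPM). Col4a6 and Col4a5 start 1308 bases apart on the X chromosome, at 1.27 and 5.48 TPM. Among neighbours that lie further apart, Col6a2 and Col6a1 (85161 bases, chromosome 10) were close in level at 13.4 and 15.2 TPM. Col3a1 and Col5a2, whose ends lie 24614 bases apart on chromosome 1, were at 239 and 19.5 TPM. Col9a1 and Col19a1, 9205 bases apart, were at 2.36 and 0.185 TPM.

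The deposited transcript tables split each gene's TPM over its transcripts. Of the 27 detected genes, 25 had the same main transcript in both libraries, among them all 9 genes that reached 10 TPM in each library. The exceptions were Col4a5, where Col4a5-204 led in replicate 1 (59.5% and 48.0%) and the longer Col4a5-202 led in replicate 2, and Col13a1, where Col13a1-205 and Col13a1-204 changed places. By transcript counts 26 genes had the same main transcript, since Col4a5-202 then led in both libraries (56.2% and 67.1%). The same count over all protein-coding genes is not given, so it cannot be said whether collagens differ in this. For Col16a1, Col27a1 and Col6a3 the main transcript in replicate 1 was not protein-coding.

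Short transcripts bear on several levels, because few counts on a short transcript weigh heavily per length. Col3a1-205, a 737-base transcript, held 26.2% and 26.1% of Col3a1 TPM but 1022 of its 25204 counts in replicate 1. A recount over protein-coding transcripts of at least 50% of the longest length was therefore added after seeing the data. Of the 27 genes, 15 kept 90% or more of their TPM. Col4a5 was among these because the 3511-base Col4a5-204 passed the length limit, so the recount does not probe its ratios. Below 50% were Col16a1 (19.5%), Col27a1 (31.3%), Col12a1 (31.6%) and Col6a3 (45.3%). With this measure Col3a1 fell to 170.78 and 174.35 TPM, 1.09-fold above Col1a1 in place of 1.48-fold. The log2 ratios of 0.03 and 0.22 then differed by more than their mean of 0.13, so the order of the leading collagens was no longer called, nor was it by estimated counts (mean log2 0.09).

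The same recount left Col6a3 3.15-fold below Col6a1, in place of 1.45-fold, because Col6a3-206, a 646-base retained-intron transcript, held 51.8% and 43.0% of Col6a3 TPM. Col12a1 was 3.34-fold below Col14a1 in place of 1.62-fold, and Col15a1 was 96.1-fold below Col18a1 in place of 40.3-fold (log2 -6.59 in place of -5.33, and -4.45 by posterior mean TPM). The size of the Col15a1 ratio also depends on the pseudocount, since it was log2 -4.50 over all transcripts with 1 TPM. Col13a1 was 1.52-fold above Col23a1 in place of 2.28-fold, and by estimated counts (log2 0.01) that pair lost its order. The order of Col9a3 and Col9a2, not called by either measure, turned from a mean log2 ratio of 0.28 to -0.34. With this measure 26 collagen genes were detected in place of 27, and 13 pairs were ordered in place of 14.

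Col18a1 has an upstream and a downstream start, which give proteins with different first residues. Their first 45 coding bases are shown, with the start codon in capitals, because the libraries used these starts unequally.
Col18a1-202: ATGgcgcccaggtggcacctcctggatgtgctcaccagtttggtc
Col18a1-203: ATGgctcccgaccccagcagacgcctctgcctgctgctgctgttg

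The upstream stretch lies at chr10:77166327-77166449 (minus strand, GRCm38) and spans an intron, and the downstream stretch lies at chr10:77113632-77113676 (minus). Col18a1-202, from the upstream start, held 88.7% and 87.4% of Col18a1 TPM, at 36.54 and 41.48 TPM. Col18a1-203 held 7.4% and 9.7%, at 3.03 and 4.59 TPM. Col18a1-201, which shares the downstream coding start, was at 0.76 and 0.06 TPM. As background, the upstream start gives the short protein common in vascular and epithelial basement membranes, and the downstream start is the one known from liver parenchymal cells.

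Since the main Col18a1 transcript starts there, the 120 bases upstream of its first base, at chr10:77166549-77166668 (minus strand, GRCm38.p6 window from RefSeq), are printed with matches to the GC box in capitals.
Col18a1 promoter: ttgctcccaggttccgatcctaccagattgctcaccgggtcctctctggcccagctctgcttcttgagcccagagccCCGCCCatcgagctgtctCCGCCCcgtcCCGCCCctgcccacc

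The GC box was searched as GGGCGG on both strands, and none of the motifs searched contains another. RefSeq windows were at hand for 35 of the 44 genes (38 windows) and not for Col12a1, Col14a1, Col1a1, Col22a1, Col26a1, Col2a1, Col4a3, Col5a2 and Col9a3. In the 250 upstream bases the GC box was found in 57.9% of collagen windows and 32.7% of all 32851 windows. CCAAT was found in 34.2% and 33.8%, and TATAAA in 13.2% and 12.4%. These are letter matches, not sites.

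Col9a1 likewise has a long form from an upstream start and a short form from a downstream start. The short form's start, in capitals at chr1:24195380-24195424 (plus strand, GRCm38), and that of the long form at chr1:24177855-24178289 (plus, across an intron) are shown because the libraries held reads assigned to the short form and 0 to the long form.
Col9a1-202: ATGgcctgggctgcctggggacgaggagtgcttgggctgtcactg
Col9a1-201: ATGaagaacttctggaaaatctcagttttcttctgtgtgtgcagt

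The short form, Col9a1-202, held 95.1% and 100% of Col9a1 TPM, and the long form, Col9a1-201, had 0 counts in both libraries, where a count of 0 allows up to 3. The long form is the one typical of cartilage, as background. Col9a1 had 158 and 172 counts in all, so the split rests on few reads.

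Col2a1 is spliced with or without exon 2, which encodes a cysteine-rich domain of the procollagen. The form with this exon is known from cartilage precursors and non-cartilage tissue, and the form without it from mature cartilage. The exon has 204 bases, at chr15:98000403-98000606 (minus strand, GRCm38), and is printed as a difference between the transcripts, whose annotated first bases also differ.
Col2a1 exon 2: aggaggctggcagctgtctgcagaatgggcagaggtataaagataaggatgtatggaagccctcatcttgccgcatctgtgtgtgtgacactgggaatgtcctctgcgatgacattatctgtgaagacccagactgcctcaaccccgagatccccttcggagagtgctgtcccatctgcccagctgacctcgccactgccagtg

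Col2a1-201, which contains exon 2, held 68.8% and 53.0% of Col2a1 TPM, at 3.40 and 3.13 TPM. Col2a1-202, which lacks it, held 29.1% and 26.8%, at 1.44 and 1.58 TPM. The form with the exon was thus the higher in each library. In replicate 2 a further 14.9% was assigned to Col2a1-209, a 613-base retained-intron transcript with 0 counts in replicate 1.

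**Figure D4:**
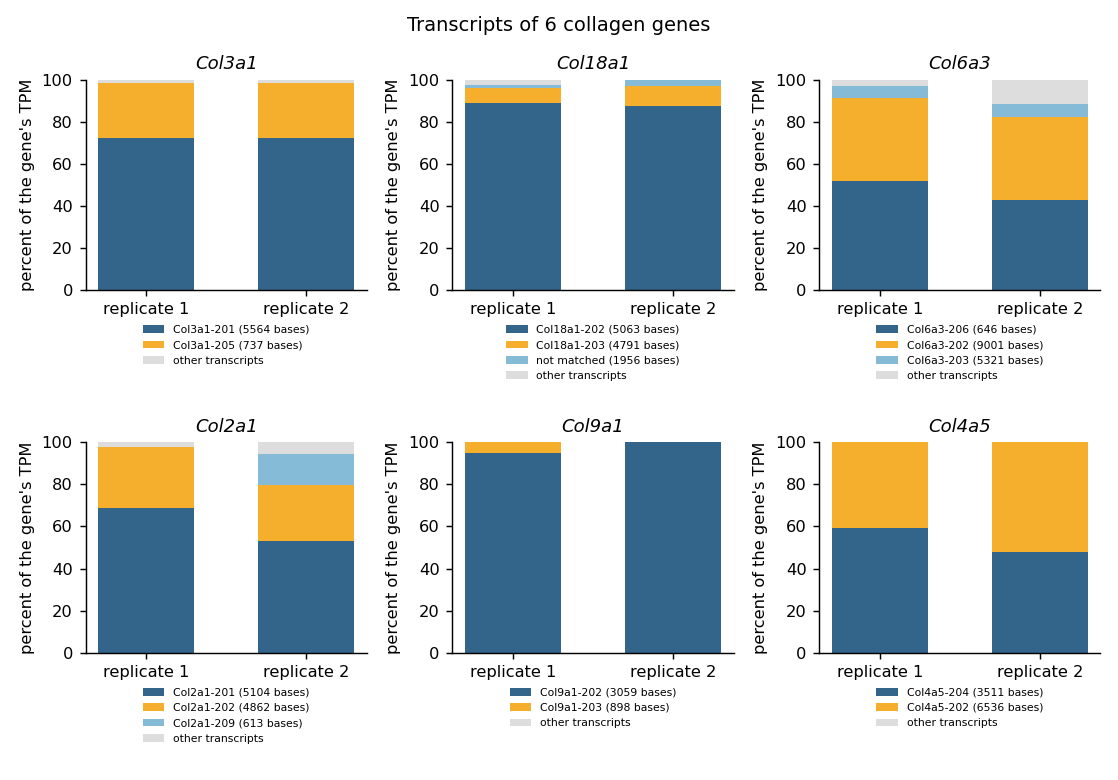
Percent of each gene's TPM carried by its leading transcripts in replicates 1 and 2, for 6 collagen genes, as stacked bars from 0 to 100. The upstream-start transcript of Col18a1 fills 88.7% and 87.4% of its bars and the short form of Col9a1 95.1% and 100%, whereas the leading transcript of Col4a5 differs between the libraries.

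The libraries were compared to describe the pools, with estimated counts scaled by TMM (trimmed mean of M values) factors and a mean of 10 or more counts required, which 39 collagen genes met. Of these, 30 were higher in replicate 1 and 9 in replicate 2, and the median log2 ratio was 0.18. Over 14418 protein-coding genes, 6848 were higher in replicate 1 and 7570 in replicate 2, with a median of -0.01. TPM has a fixed total per library that includes the spike-ins (14.6% and 11.1% of it), and their share was not taken out here. By TPM, the collagen split was 23 and 16 (median log2 0.07), beside 4755 and 9592 over all protein-coding genes (median -0.09). With TMM or DESeq2 size factors all 10 fibrillar chains that met the count were higher in replicate 1, but by TPM 6 were, and Col3a1, Col5a2, Col2a1 and Col11a1 were higher in replicate 2. The TMM log2 ratios of the leading chains were 0.06 in Col3a1, 0.24 in Col1a1, 0.11 in Col1a2 and 0.27 in Col5a1. Col18a1 (-0.11), Col4a1 (-0.06), Col4a2 (-0.10) and Col14a1 (-0.22) went the other way.

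At least 2-fold higher in replicate 1 were 3 collagen genes, where 1.96% of all protein-coding genes were, and 0 were 2-fold higher in replicate 2, where 1.12% were. The 3 were low: Col4a4 (30 and 9 counts, log2 1.57, 95% exact interval 0.51 to 2.88 for counting error only), Col7a1 (33 and 10 counts, log2 1.57) and Col22a1 (55 and 21 counts, log2 1.26). At a mean of 100 or more counts, 0 of 27 collagen genes were 2-fold apart and the median log2 ratio was 0.14. Of all 11522 protein-coding genes at that count, 25 were 2-fold higher in replicate 1 and 2 in replicate 2, with a median of -0.02. Without a count minimum 5 collagen genes were 2-fold apart, a count not given over all genes. The added genes were Col20a1 and Col6a5, both higher in replicate 2 on 10 or fewer counts.

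Marker lists differed in how they moved between the libraries. In replicate 1, 10 of 10 heart muscle markers were higher (median log2 1.24), with the atrial hormone gene Nppa at 25.08 and 5.79 TPM. By TMM, all 6 mesothelial markers were higher in replicate 1 as well (median 0.15, 4 of 6 by TPM). Of the stellate and mesenchymal markers, 7 of 10 were higher in replicate 1 by TMM (median 0.06) and 4 of 10 by TPM (median -0.02). Endothelial markers leaned to replicate 2, with 4 of 6 higher there by TMM (median -0.07) and 5 of 6 by TPM. The part of these cell types in the collagen differences was not tested.

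**Figure D5:**
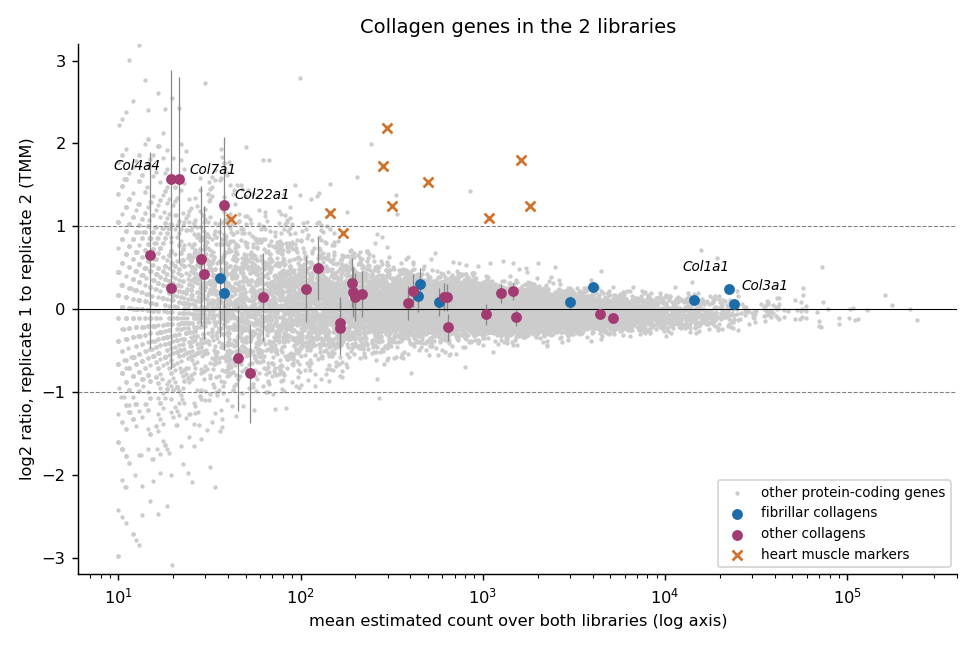
Log2 ratio of replicate 1 to replicate 2 (TMM-scaled counts) against the mean estimated count on a log axis, for 39 collagen genes with 95% exact intervals for counting error, the 10 heart muscle markers and other protein-coding genes (15 of these lie beyond the vertical range). Fibrillar collagens all lie above 0 on this scale (6 of 10 do by TPM), Col4a4, Col7a1 and Col22a1 lie above the dashed line of a 2-fold difference at low counts, and the heart muscle markers lie at 0.92 or more.

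The genes that make, secrete, cross-link, bind and degrade collagen were taken as 8 lists of 55 genes, and 43 of them were detected, where 56.6% of all protein-coding genes were. All 10 genes listed under prolyl hydroxylation were detected with a median of 19.7 TPM in each library. P4hb, the shared subunit of prolyl 4-hydroxylase and a general folding enzyme, was at 501.03 and 552.72 TPM, and Ppib, a folding isomerase, at 401.19 and 424.96 TPM. P4ha1, a catalytic subunit, was at 46.25 and 49.19 TPM. All 5 genes of lysyl hydroxylation and glycosylation were detected, led by Colgalt1 (33.24 and 35.32 TPM), Plod1 (24.89 and 27.23 TPM) and Plod3 (22.40 and 24.09 TPM).

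Folding and secretion genes were likewise all detected, 8 of 8. Serpinh1, which encodes the collagen chaperone HSP47, was the highest at 164.64 and 167.07 TPM. Mia3, which helps load procollagen into transport vesicles, was at 55.69 and 68.97 TPM, and Sec23a, a coat protein of those vesicles, at 32.43 and 41.58 TPM.

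Propeptide processing and cross-linking take place later, mostly outside the cell. Of 8 genes of propeptide processing 5 were detected, with Pcolce, an enhancer of the cleavage, at 36.90 and 34.50 TPM, the protease Bmp1 at 12.47 and 11.93 TPM and Pcolce2 at 10.51 and 11.96 TPM. Adamts14 and Tll1 were under 1 TPM in both libraries (0.38 to 0.70 TPM), and Tll2 had 0 counts. Of the cross-linking lysyl oxidases 4 of 5 were detected, with Loxl2 at 9.15 and 10.66 TPM, Loxl1 at 8.34 and 7.62 TPM and Lox at 5.38 and 6.69 TPM, whereas Loxl4 was at 0.14 and 0.13 TPM.

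Among 9 collagen receptors 5 were detected. The collagen-binding kinases Ddr1 (12 and 10.62 TPM) and Ddr2 (7.36 and 5.66 TPM) were the highest, followed by Gp6, the collagen receptor of platelets, at 4.12 and 4.76 TPM. The integrin chains Itga10 and Itga11 were under 1 TPM in both libraries, from 0.15 to 0.59 TPM. Of 6 breakdown genes 3 were detected, led by the membrane protease Mmp14 (42.24 and 43.75 TPM) and the gelatinase Mmp2 (29.68 and 32.55 TPM). Ctsk, which encodes cathepsin K, was at 1.37 and 1.35 TPM. The collagenases Mmp8 (0.38 and 0.49 TPM) and Mmp13 (0 and 1 counts) were under the threshold. Of the inhibitors, Timp3 (25.32 and 26 TPM), Timp2 (13.56 and 14.60 TPM) and Timp1 (8.08 and 7.10 TPM) were detected and Timp4 had 0 counts.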

How the data were processed

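Total RNA was measured in 2 libraries of embryonic liver, which the labels call biological replicates 1 and 2 of a single group. Per the labels, reads were assigned on assembly mm10, and notes deposited with the tables name GENCODE M4 and transcriptome alignments. For the aligner, the quantifier and the use of strand, nothing was given in the sources used here. Estimated counts, which can be fractional, were deposited by the authors together with TPM and FPKM per gene and transcript. Per the file headers, the transcript tables also hold the percent of each gene's expression, and a posterior mean and credibility bounds, at a level not named, stand beside each TPM. Symbols, classes and coordinates came from GENCODE M21 (GRCm38), matched on the identifier without its version, so some coordinates can differ from M4.

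Estimated counts were rounded and scaled over mouse genes with TMM factors from edgeR 4.0.16 or DESeq2 1.42.0 size factors (R 4.3.3), with a pseudocount of 0.5 counts. Python 3.11.15 and pandas 2.3.3 did the rest. The limit that a count of 0 allows is 3 counts, and 95% intervals are exact binomial intervals. Both cover counting error only. The scaling was tested on simulated data. Structural groups follow textbook classes. Every detected collagen gene is named, and of each synthesis, receptor and breakdown list the 3 highest genes and those under 1 TPM in both libraries. Single marker genes of other cell types were picked as examples after their values were seen. The members and lists were chosen with earlier results of these data known. No condition was compared, and the spread given is that between the 2 pools. Alternatives changed the threshold, the unit, the pseudocount, the scaling, the count minimum and the library left out.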

Additional observations from a re-analysis of the deposited data

How the results depend on the processing

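Of 228 alternative values, 185 stayed on the same side of their rule or within the spread between the libraries. For chain pairs, 0 of the ordered ratios changed sign, and the call was lost by 3 values: Col3a1 to Col1a1 by counts and over near-full-length transcripts, and Col13a1 to Col23a1 by counts. Of the pairs without an order, 4 values changed sign: Col9a3 to Col9a2 by counts (-0.19) and over near-full-length transcripts (-0.34), Col5a1 to Col5a2 without replicate 1 (-0.07) and Col9a1 to Col9a2 without replicate 2 (-0.08). The number of detected collagen genes ranged from 23 (a TPM of 2) to 28 (a TPM of 0.5), and was 28 without replicate 1 and 27 without replicate 2. By posterior mean TPM it was also 28. Summed collagen TPM was 850.2 when TPM was set relative to mouse genes alone and 638.8 over near-full-length coding transcripts, an alternative chosen after seeing the data. The fibrillar share was 78.2% by estimated counts, which are not per length. Ordered pairs numbered 12 by estimated counts and 13 over near-full-length transcripts. Collagen genes at least 2-fold apart between libraries numbered 5 without a count minimum, 2 by TPM and 0 where the mean count had to reach 100. With detected genes limited to 10 TPM or more in each library, 9 had the same main transcript, since fewer genes were considered. The median log2 ratio between libraries was 0.07 by TPM, with 16 in place of 9 collagen genes higher in replicate 2. No paired analysis was possible because both libraries belong to a single group. With 2 pools and no control, differences between chains rest on annotation and on the deposited model that shares reads among transcripts, and levels near 0.1 TPM rest on few counts.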
